A study of Mus musculus with 15 samples.

Results

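The 10 genes described here include those for the NF-kB subunits Nfkb1, Nfkb2, Rel, Rela and Relb. The others encode the IkB proteins Nfkbia, Nfkbie and Nfkbiz, the regulator Tnfaip3 and the cytokine Tnf. All 10 were chosen by gene symbol, and all their probes that are not controls were taken. This gave 10 of 34816 gene names and 13 of 55681 probes. Expression was measured on 15 one-colour Agilent arrays in CD4 T lymphocytes that had been sorted by flow cytometry out of lamina propria leukocytes from the small intestine of male mice. The 3 groups of 5 arrays were mice on normal chow (control), mice after 10 days of a high-fat diet and mice after 30 days of that diet. The diet was given to change the microbiota, and the study calls the dieted mice prediabetic and diabetic. RNA was amplified with SuperAmp, a commercial procedure for small samples, and 250 ng of cDNA was labelled with Cy3. The labels give neither strain nor age, no day for the controls, and do not say whether the 5 arrays in a group stand for different animals. The p-values therefore reflect no more than how much these samples varied, which may be a technical spread, and time on the diet cannot be told apart from age.

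NF-kB transcription factors are dimers of these subunits. In a resting T cell most dimers are held in the cytoplasm by inhibitor proteins of the IkB family, and signals from the T cell receptor or from TNF receptors lead to the destruction of the inhibitor and release of the dimer. Several genes of the system, among them those for Nfkbia, Tnfaip3 and Nfkb2, are known targets of NF-kB, so that the pathway makes its own brakes. Transcript levels of this kind do not measure nuclear NF-kB.

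The upstream sequences of 5 of these genes are shown because they hold matches to the NF-kB binding consensus, known as the kappa-B consensus, and that of Tnf is shown beside them as one without a match. Of the 10 genes, 7 had an entry in the RefSeq promoter table (build GRCm38.p6), and Nfkb1, Relb and Nfkbiz were not matched. Each line gives the 120 bases before an annotated start, 5′ to 3′ on the strand of the gene, with whole matches to the kappa-B consensus on either strand in capitals.
Nfkb2: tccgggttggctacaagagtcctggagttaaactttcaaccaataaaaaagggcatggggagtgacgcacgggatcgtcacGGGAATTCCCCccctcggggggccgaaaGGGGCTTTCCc
Rel: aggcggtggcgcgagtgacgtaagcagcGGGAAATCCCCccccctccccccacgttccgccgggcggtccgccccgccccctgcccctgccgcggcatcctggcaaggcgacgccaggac
Nfkbia: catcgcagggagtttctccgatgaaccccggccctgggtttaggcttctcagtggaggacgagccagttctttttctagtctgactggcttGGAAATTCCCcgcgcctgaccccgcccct
Nfkbie: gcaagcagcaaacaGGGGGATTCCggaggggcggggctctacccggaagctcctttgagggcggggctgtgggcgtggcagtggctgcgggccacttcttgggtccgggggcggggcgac
Tnfaip3: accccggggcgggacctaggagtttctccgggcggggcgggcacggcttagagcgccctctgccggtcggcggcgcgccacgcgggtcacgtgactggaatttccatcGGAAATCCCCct
Tnf: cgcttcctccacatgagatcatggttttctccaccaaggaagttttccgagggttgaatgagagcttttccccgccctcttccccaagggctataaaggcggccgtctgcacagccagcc

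These windows lie at chr19:46304617-46304736 (plus strand) for Nfkb2, chr11:23770970-23771089 (minus) for Rel and chr12:55492648-55492767 (minus) for Nfkbia. Those of Nfkbie, Tnfaip3 and Tnf lie at chr17:45555580-45555699 (plus), chr10:19015411-19015530 (minus) and chr17:35202008-35202127 (minus). Over the 250 bases before each start, 5 of the 7 genes held a match (Nfkb2, Rel, Nfkbia, Nfkbie and Tnfaip3), against 7.25% of all 32851 promoters in the table and 8.23% of 27025 genes. The nearest match began 29 bases before the start for Nfkbia, 12 for Tnfaip3, 11 for Nfkb2, 91 for Rel and 106 for Nfkbie. A match describes letters and is neither a binding site nor a cause of the values below. No match was found in the windows of Rela and Tnf, which says only that these letters are not there.

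The probes for Nfkb2 and Nfkbia are printed because the values of the noncanonical precursor and of the main inhibitor, whose spread differed most between the groups among the 9 tested genes, rest on them.
Nfkb2 probe: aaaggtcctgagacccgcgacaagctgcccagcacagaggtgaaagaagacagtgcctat
Nfkbia probe: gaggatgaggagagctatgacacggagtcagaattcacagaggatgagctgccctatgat

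On build mm9, as annotated with the array, the Nfkb2 probe spans chr19:46386146-46386285 and the Nfkbia probe chr12:56590945-56591440. Both spans are longer than the 60 bases of the probe.

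The share of spots well above background ran from 50.9 to 82.0% in the control arrays, from 55.3 to 61.9% at day 10 and from 45.2 to 59.5% at day 30. The maximum belonged to control replicate 1. Slide 1 held the 5 controls and day 10 replicates 1 to 3, and slide 2 held day 10 replicates 4 and 5 and the 5 day 30 arrays, so that no slide holds both controls and day 30 arrays. Of 9 CD4 T cell markers, 8 were well above background on all 15 arrays, among them Cd4, Cd3e and Thy1. Of the markers for other cell types, these were detected throughout: 4 of 8 for CD8 T, NK and cytotoxic cells, 4 of 11 for macrophages and dendritic cells, 3 of 8 for B and plasma cells, 1 of 6 for granulocytes and mast cells, 2 of 8 for gut epithelium and 0 of 6 for stroma and endothelium. The B cell marker Ms4a1 and the endothelial marker Cdh5 were on no array.

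All of the 10 genes but Tnf, that is 9, were well above background on all 15 arrays, through 12 of the 13 probes. No gene of the 10 passed the test in any comparison (limma over 25997 genes, Benjamini-Hochberg adjusted p under 0.05). The share of all genes that passed was 0% in each comparison. At an unadjusted p under 0.05 there were also 0 of the 9 tested genes, against 2.61% of all genes for day 10 minus control, 5.21% for day 30 minus control and 4.12% for day 30 minus day 10. For no gene of the 10 did the 5 arrays of one group lie wholly above or below the 5 of another, while 0.427%, 0.646% and 0.581% of all genes tested did so in these comparisons. The depth of this design limits such calls: the smallest adjusted p among the 9 genes was 0.923, for Nfkb2 at day 30 against control, and the intervals given below are wide.

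Values are log2 of the processed signal minus the 75th percentile of the array, so that 0 is the level of that percentile and 1 unit is a doubling. They are given by array in the order of the replicate numbers, which carry no order of their own. Levels of different probes are not compared. In sorted cells, fewer cells that express a gene and less RNA per cell cannot be told apart.

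**Figure D1:**
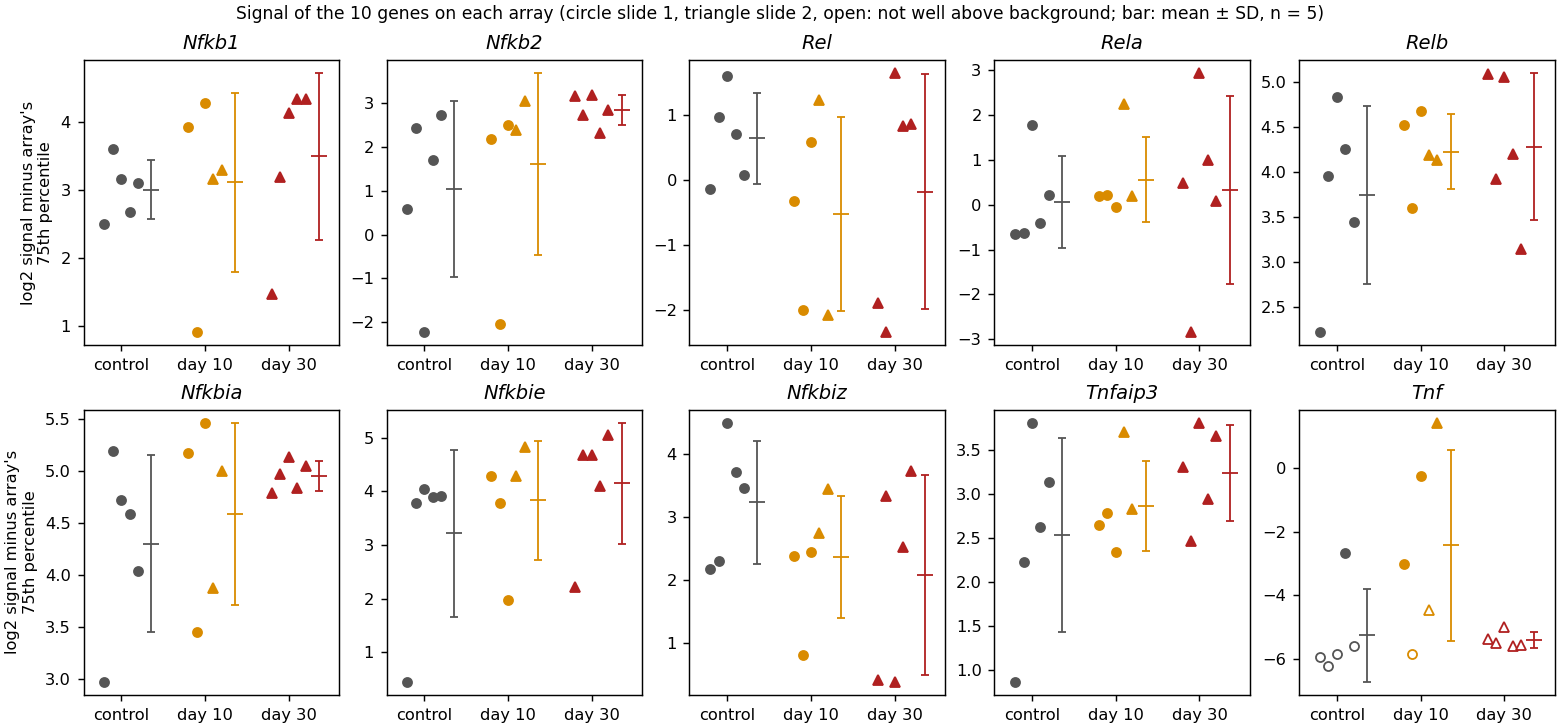
Signal of the 10 genes on each of the 15 arrays, in log2 units relative to the 75th percentile of the array, with circles for slide 1, triangles for slide 2, open symbols for arrays where the probe was not well above background, and bars for the mean ± SD (n = 5). The groups overlap for every gene, the 5 day 30 arrays lie close together for Nfkb2 and Nfkbia, and Tnf was well above background on only 4 arrays.

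Nfkb2 encodes the precursor p100 of the noncanonical pathway, which is cut to the subunit p52. In the controls its values were 0.59, 2.44, -2.23, 1.71 and 2.73. At day 10 they were 2.17, -2.04, 2.50, 2.40 and 3.05, and at day 30 they were 3.15, 2.73, 3.18, 2.32 and 2.84. All 5 day 30 arrays were above the control mean of 1.05 ± 2.01 (SD, n = 5), but 2 controls lay within the range of the day 30 arrays. The day 30 difference was 1.80 (SE 0.96, 95% interval -0.24 to 3.83; limma unadjusted p = 0.0799, adjusted p = 0.923). With slide as a block it was -0.05, in the authors' deposited values it was 0.49 and without control replicate 3 it was 0.98, and the 2 day 10 arrays on slide 2 were at 2.40 and 3.05, within the range of the day 30 arrays. At day 10 the difference was 0.57 (SE 0.96, limma adjusted p = 1.000). It was -0.25 without control replicate 3, the lowest Nfkb2 value of all 15 arrays.

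Relb encodes the partner of p52 and is itself a known NF-kB target. By its brightest probe it was at 2.22, 3.95, 4.83, 4.25 and 3.44 in the controls, at 4.52, 3.60, 4.68, 4.19 and 4.13 at day 10 and at 5.09, 3.93, 5.05, 4.20 and 3.14 at day 30. Control replicate 1 was the lowest array, and the other controls lay among the dieted arrays. The differences from control were 0.48 at day 10 (SE 0.47, 95% interval -0.51 to 1.48) and 0.54 at day 30 (SE 0.47, 95% interval -0.46 to 1.54). Without control replicate 1 they were 0.10 and 0.16, and with the share of detected spots as a covariate 0.15 and -0.25. Between days 10 and 30 the difference was 0.06 (95% interval -0.94 to 1.05).

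Relb is read by 3 probes and Nfkb1 by 2. A pair of Relb probes (chr7:20191722-20191781 and chr7:20191773-20191832, mm9) share 9 bases, and their values followed each other closely over the 15 arrays (Pearson r = 0.969 and Spearman rho = 0.936, permutation p = 1e-05 for each, the smallest that 100000 permutations can give). The adjusted p over the 4 probe pairs was 4e-05, and r was 0.947 when the 2 most distant arrays were dropped. The pair share bases and arrays, so this describes the precision of the measurement. The other Relb probe (chr7:20203058-20203117) lies 11225 bases away and gave 1.14, 0.28, 1.33, 0.38 and 1.32 in the controls, -0.33, 0.67, 0.07, 0.05 and 1.31 at day 10 and 2.44, -0.16, -0.06, -0.12 and 0.11 at day 30. It did not follow the pair (r = 0.00 and -0.12, permutation p = 0.991 and 0.658). Its differences from control were -0.54 at day 10 and -0.45 at day 30, opposite in sign to those of the pair, so that the probes for Relb disagree in direction.

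**Figure D2:**
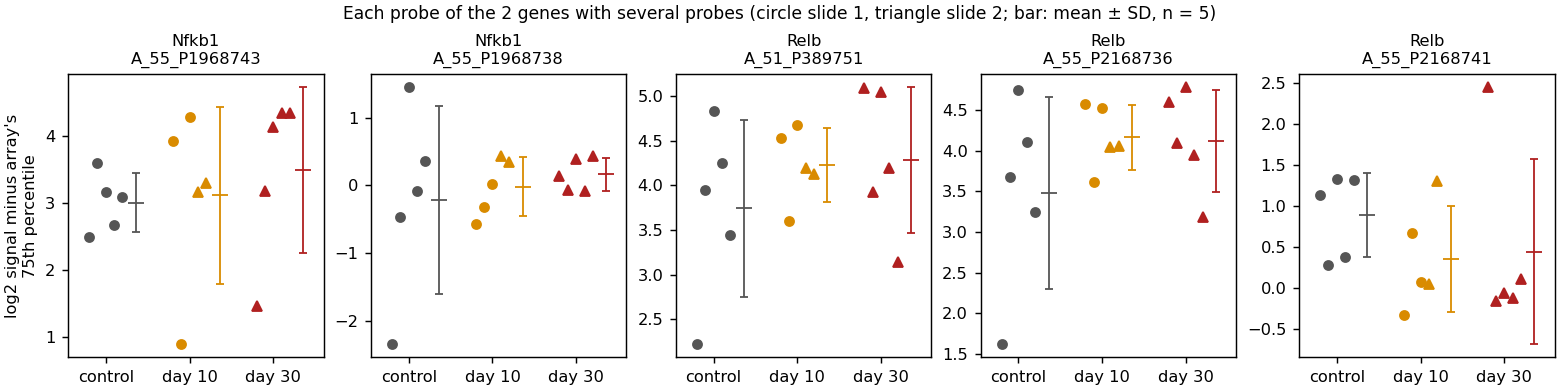
Values of each probe of Nfkb1 and Relb on the 15 arrays, in log2 units relative to the 75th percentile of the array, with circles for slide 1, triangles for slide 2 and bars for the mean ± SD (n = 5). The first 2 Relb probes follow each other closely (Spearman rho = 0.936), and the third has day 30 replicate 1 at 2.44, apart from the other day 30 arrays.

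Nfkb1 encodes p105, the precursor of the p50 subunit of the canonical dimer. Its brighter probe (chr3:135254550-135254609, mm9) gave 2.50, 3.60, 3.17, 2.68 and 3.10 in the controls, 3.93, 0.90, 4.29, 3.17 and 3.30 at day 10 and 1.47, 3.19, 4.13, 4.34 and 4.34 at day 30. The controls lay close together (SD 0.43), and day 10 replicate 2 and day 30 replicate 1 were the lowest arrays. The differences from control were 0.11 at day 10 (SE 0.63, 95% interval -1.23 to 1.45) and 0.49 at day 30 (SE 0.63, 95% interval -0.85 to 1.82). The other probe, 6869 bases away (chr3:135247621-135247680), was at -2.34 in control replicate 1 and between -0.57 and 1.45 on the other 14 arrays. The pair of Nfkb1 probes correlated with r = 0.20 (Spearman rho = 0.125, permutation p = 0.452 and 0.658).

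Rela encodes p65, the main activating subunit of the canonical dimer. Its values were -0.65, -0.63, 1.77, -0.41 and 0.21 in the controls, 0.20, 0.22, -0.04, 2.24 and 0.18 at day 10 and 0.48, -2.85, 2.94, 1.00 and 0.08 at day 30. One array of each group (control replicate 3, day 10 replicate 4 and day 30 replicate 3) stood well above the rest, and day 30 replicate 2 was the lowest of all. The day 10 difference of 0.50 (SE 0.86) was 0.08 without day 10 replicate 4, 0.07 with slide as a block and 0.05 with the share of detected spots as a covariate. The day 30 difference was 0.27 at day 30 (SE 0.86, 95% interval -1.56 to 2.10), and it was -0.38 without day 30 replicate 3 and -0.82 with slide as a block.

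Rel encodes c-Rel, a subunit found mainly in lymphocytes and other blood cells and known for its role in T cell activation. It was at -0.14, 0.97, 1.60, 0.70 and 0.06 in the controls, at -0.33, -2.00, 0.57, 1.23 and -2.08 at day 10 and at -1.89, -2.35, 1.64, 0.83 and 0.85 at day 30. Values at or below -1.89 were seen on 2 day 10 and 2 day 30 arrays and on no control array, while the other dieted arrays lay between -0.33 and 1.64 and the controls between -0.14 and 1.60. The differences were -1.16 at day 10 (SE 0.85, 95% interval -2.97 to 0.65; limma unadjusted p = 0.192) and -0.82 at day 30 (SE 0.85, 95% interval -2.63 to 0.98). Rel was below control on average under all 27 alternative settings at both times, from -1.60 to -0.77 at day 10 and from -1.48 to -0.28 at day 30. Several of these settings cannot move the difference of a gene detected on all arrays by its only probe. They include the filters on dim genes, replicate number as a block and leaving out an array of the group not compared.

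Nfkbia encodes IkB-alpha, the inhibitor that is destroyed and made anew in each round of NF-kB activation. Its values were 2.97, 5.19, 4.73, 4.59 and 4.04 in the controls, 5.17, 3.45, 5.46, 3.87 and 5.00 at day 10 and 4.79, 4.97, 5.14, 4.84 and 5.05 at day 30. The 5 day 30 arrays covered 4.79 to 5.14 with an SD of 0.14, against an SD of 0.85 in the controls and 0.88 at day 10, and all 5 were above the means of both other groups. A test of spreads was not made. The difference from control was 0.29 at day 10 (SE 0.43, 95% interval -0.62 to 1.20). At day 30 it was 0.66 (SE 0.43, 95% interval -0.26 to 1.57; limma adjusted p = 0.929), and it was 0.32 without control replicate 1 and -0.12 in the authors' deposited value table.

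Nfkbie encodes IkB-epsilon, an inhibitor of p65 and c-Rel dimers. It was at 0.45, 3.79, 4.05, 3.90 and 3.90 in the controls, at 4.28, 3.78, 1.96, 4.29 and 4.82 at day 10 and at 2.21, 4.68, 4.68, 4.10 and 5.05 at day 30. Apart from control replicate 1, the controls lay between 3.79 and 4.05, and each dieted group had 1 low array and 4 arrays at 3.78 or above. The differences from control were 0.61 at day 10 (SE 0.73) and 0.93 at day 30 (SE 0.73, 95% interval -0.62 to 2.48). Without control replicate 1 they were -0.08 and 0.24, and with slide as a block 0.13 and -0.29.

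Nfkbiz encodes IkB-zeta, a nuclear IkB protein that acts on a subset of NF-kB target genes. It was at 2.18, 2.31, 4.50, 3.72 and 3.46 in the controls, at 2.39, 0.82, 2.44, 2.75 and 3.45 at day 10 and at 0.42, 3.34, 0.38, 2.53 and 3.73 at day 30. Day 30 replicates 1 and 3 and day 10 replicate 2 were the lowest, and the other dieted arrays lay within the range of the controls. The differences were -0.86 at day 10 (SE 0.71, 95% interval -2.37 to 0.64) and -1.15 at day 30 (SE 0.71, 95% interval -2.66 to 0.36; limma unadjusted p = 0.125). The day 30 difference stayed below 0 under all 27 alternative settings, from -2.37 with slide as a block (limma unadjusted p = 0.0744) to -0.73. As for Rel, several of these settings cannot move it. In the authors' deposited value table it was -1.25 (limma unadjusted p = 0.0126, adjusted p = 0.590).

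Tnfaip3 encodes A20, a ubiquitin-editing enzyme that ends signalling from TNF receptors to NF-kB. Its values were 0.87, 2.23, 3.81, 2.63 and 3.13 in the controls, 2.65, 2.79, 2.35, 3.71 and 2.84 at day 10 and 3.31, 2.47, 3.80, 2.95 and 3.66 at day 30. Control replicate 1 was the lowest of the 15 arrays and control replicate 3 the highest, so that both ends of the range were controls. The differences from control were 0.33 at day 10 (SE 0.49, 95% interval -0.70 to 1.36) and 0.70 at day 30 (SE 0.49, 95% interval -0.33 to 1.73). With slide as a block they were 0.06 and 0.02, and without control replicate 1 the day 30 difference was 0.29.

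**Figure D3:**
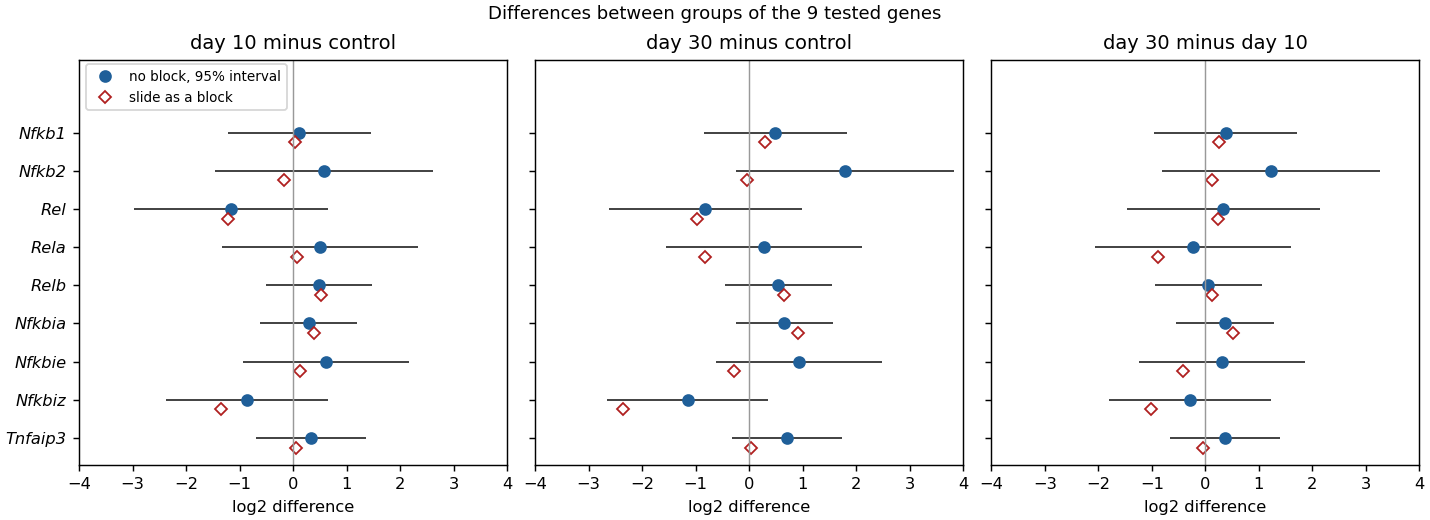
Differences between groups for the 9 tested genes on the log2 scale, with filled circles and lines for the estimate and its 95% interval and open diamonds for the estimate with slide as a block. All intervals cross 0, and at day 30 the block moves Nfkb2 from 1.80 to -0.05 and Nfkbiz from -1.15 to -2.37.

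In each comparison 7 of the 9 genes had a difference above 0 and 2 below, with Rel and Nfkbiz below control at both times, against 49.5%, 49.8% and 52.8% of all genes above 0. The 3 comparisons share arrays. The median over the 9 genes was 0.33 for day 10 minus control, 0.54 for day 30 minus control and 0.34 for day 30 minus day 10, beside -0.01, -0.01 and 0.05 over all genes tested. Control replicate 1 was the lowest of all arrays for 4 of the 10 genes (Relb, Nfkbia, Nfkbie and Tnfaip3). Without it, 3 genes were above and 6 below control at day 10, with a median of -0.04, and at day 30 there were 7 above and 2 below, with a median of 0.24. With slide as a block, 4 were above and 5 below at day 30, with a median of -0.05. Without day 10 replicate 2, 4 were higher and 5 lower at day 30 than at day 10, with a median of -0.03. At day 30 against control the median was 0.27 with quantile normalization (7 above, 2 below). It was 0.15 with the percentile over probes detected on all arrays (6 and 3). In the deposited table it was -0.12 (3 and 6), beside -0.24 over all genes. With detection share as a covariate it was -0.25 (3 and 6). The direction of the 9 genes changed with single arrays, the slide, this covariate and the scaling. These 9 were detected on all arrays, while the genes tested include dimmer ones.

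Control replicate 1 was also the array with the lowest summed linear signal of the 9 CD4 T cell markers, 33.7 times the array's 75th percentile, against 73.7 to 192 on the other 14 arrays. It was likewise lowest for the 8 CD8 T, NK and cytotoxic cell markers, at 45.9 against 82.0 to 227 on the other 14. The part of these sums, and of the high detection share of this array, in the differences of the 4 genes was not tested. The summed signal of the 11 macrophage and dendritic cell markers ran from 9.07 to 28.7 in the controls, from 13.1 to 26.1 at day 10 and from 19.1 to 60.0 at day 30.

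Among the 10 genes, Tnfaip3 followed the share of spots well above background most closely. Over the 15 arrays r was -0.882 (permutation p = 0.00016, adjusted p = 0.0016 over the 10 genes) and Spearman's rho was -0.775 (permutation p = 0.00124, adjusted p = 0.0124). Leaving out the 2 arrays of most extreme share, control replicate 1 and day 30 replicate 3, gave r = -0.683. Within slide 1 (8 arrays) r was -0.921 and within slide 2 (7 arrays) -0.598, and after removing group means it was -0.879. In the authors' deposited value table, whose columns share one distribution, the same relation was r = -0.323 (permutation p = 0.24) with rho = -0.004 (permutation p = 0.995). For Relb r was -0.653 (permutation p = 0.0115, adjusted p = 0.0575; rho = -0.393, permutation p = 0.147) and -0.119 without those 2 arrays. For Nfkbia it was -0.533 (permutation p = 0.0436, adjusted p = 0.109; rho = -0.15, permutation p = 0.593) and -0.0056 without them. The adjusted p of r was at least 0.109 for each of the other genes. How many of all genes tested follow the share as closely as Tnfaip3 was not counted.

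**Figure D4:**
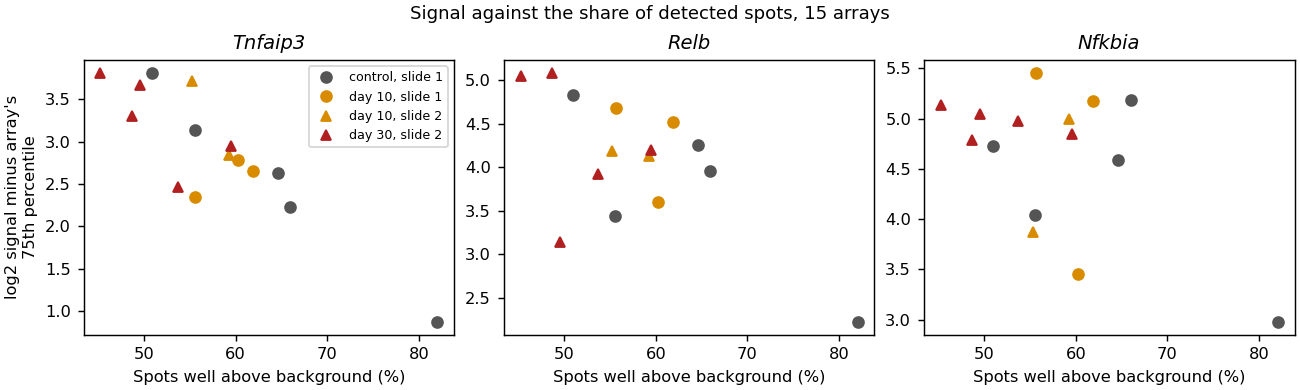
Signal of Tnfaip3, Relb and Nfkbia in log2 units relative to the 75th percentile of the array, against the percentage of spots well above background, for the 15 arrays coloured by group with slide as symbol. Tnfaip3 falls along the whole range from 45.2 to 82.0%, while for Relb and Nfkbia control replicate 1 lies apart at the lower right.

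The 3 genes whose values most resembled those of Tnfaip3, among 11592 genes detected on all arrays, were Arcn1 (r = 0.961), Xlr4a (r = 0.955) and Rsbn1l (r = 0.954). Each of them also correlated with the detection share, with r of -0.823 for Arcn1, -0.895 for Xlr4a and -0.887 for Rsbn1l. They were picked for their likeness to Tnfaip3, which itself moves with the share. These values therefore follow in part from the choice and add no separate support. For Nfkbia the 3 most alike (r of 0.905 to 0.916) were probes without a gene symbol. For Tnf they were 6230400D17Rik (r = 0.761) and a pair without a symbol.

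Among the 36 pairs of the 9 detected genes, Rela and Tnfaip3 had the closest order of arrays, with Spearman's rho = 0.854 (permutation p = 0.00011, adjusted p = 0.00396). Pearson's r for them was 0.653 (permutation p = 0.0119, adjusted p = 0.115), 0.728 when the 2 arrays most distant from the Rela median were dropped, and 0.809 and 0.806 within the slides. Nfkb1 and Nfkbia followed with rho = 0.764 (permutation p = 0.0016, adjusted p = 0.0288) and r = 0.637 (permutation p = 0.0128, adjusted p = 0.115). Their r was 0.718 when the 2 arrays most distant from the Nfkb1 median were dropped, 0.801 within slide 1 and 0.268 within slide 2. The other 34 pairs did not pass, and no pair passed by Pearson's r. The pairs share arrays. The detection share that moves with Tnfaip3 moved less with Rela, with r = -0.407 (permutation p = 0.134, adjusted p = 0.268). By order of arrays it was rho = -0.529 (permutation p = 0.0458, adjusted p = 0.153), and within the slides r was -0.734 and -0.238. The part of that share in their relation was not tested. How often pairs of other genes reach such values on these arrays was not counted, so neither pair is read as a trait of these genes.

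Tnf, the cytokine that both drives NF-kB through its receptors and is a target of it, was measured by 1 probe in 10 spots per array (chr17:35336795-35336854, mm9). It was well above background on 4 of 15 arrays, namely control replicate 4 and day 10 replicates 1, 3 and 5, and on no day 30 array. It was therefore not among the genes tested. The values were -5.95, -6.24, -5.86, -2.67 and -5.59 in the controls, -3.02, -5.86, -0.26, -4.46 and 1.43 at day 10 and -5.39, -5.49, -4.99, -5.60 and -5.56 at day 30. Day 10 replicate 5 was the highest array, followed by day 10 replicate 3.

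The spots of one array lay close together where Tnf was bright, with an SD of 0.06 on day 10 replicate 5 and 0.08 on day 10 replicate 3. Detection in 1 of 5 controls, 3 of 5 day 10 arrays and 0 of 5 day 30 arrays was not told apart by Fisher's exact test, two-sided (p = 0.524 between control and day 10, 1 between control and day 30 and 0.167 between the diet times; adjusted p = 0.786, 1 and 0.5). By group means, with the dim group set to the lowest signal well above background, Tnf at day 10 was at least 2.19-fold higher than at day 30, where it was not well above background. Day 10 replicate 5 carries much of this bound, which was 1.12-fold without it. The measured means were -2.43 and -5.41, only 3 of the 5 day 10 arrays measured it, and the bound makes no allowance for the spread between arrays. In the authors' deposited value table Tnf has values on day 10 replicates 1 and 3 alone, so the array with the highest scanner signal is not among them.

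On the 4 arrays with Tnf the summed macrophage and dendritic cell markers were 11.8 (control replicate 4), 19.6, 26.1 and 13.1 (day 10 replicates 1, 3 and 5), within the 9.07 to 60.0 of the other 11 arrays, and 9, 8, 8 and 7 of the 11 markers were detected there. Csf1r and Cd74 of this list were well above background on every array. At day 10 the macrophage marker Lyz2 and the dendritic cell marker Itgax were each detected on 0 of 5 arrays and C1qa on 1. In the same group Cd68, C1qb, H2-Ab1 and Apoe were each detected on 5 of 5 arrays, and Adgre1 and Cd14 on 4 of 5. The T cell markers Cd3e, Cd4 and Lck were detected on every array. The part of such cells in the Tnf signal was not tested.

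The wider pathway was read through 7 lists with 72 genes, of which 67 were tested. None of the 67 passed at an adjusted p under 0.05 in any comparison (limma). Some are named below for an unadjusted p under 0.05. That level was reached by 2.61% of all genes tested for day 10 minus control, 5.21% for day 30 minus control and 4.12% for day 30 minus day 10. Of the 9 TNF receptor and adaptor genes, 5 were higher and 4 lower at day 30 than in the controls, with a median of 1.09, which was 0.81 with slide as a block and 0.20 in the authors' deposited value table. This included Birc2, a ubiquitin ligase at the TNF receptor, at 1.10 (SE 0.51; limma unadjusted p = 0.0458), which was 0.28 with slide as a block. At day 10 the list had 5 higher and 4 lower, with a median of 0.05.

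Of the 9 IKK and TAK1 kinase genes, which carry the signal to the IkB proteins, 4 were higher and 5 lower at day 10 (median -0.22) and likewise at day 30 (median -0.15), and 6 were higher and 3 lower at day 30 than at day 10 (median 0.21). No gene of this list had an unadjusted p under 0.05. The smallest p were those of Ikbkb, the kinase IKK-beta, at 0.83 (SE 0.63) and Tab1 at -1.03 (SE 0.81) at day 10. At day 30 they were those of Ikbkg, the scaffold NEMO, at -3.05 (SE 1.61) and Ikbkb at 1.11 (SE 0.63). The slide block gave -1.01 and 0.68 for this pair, and Ikbkg was detected on 4 control, 3 day 10 and 1 day 30 arrays. Between the diet times they were those of Tab1 at 1.33 (SE 0.81) and Map3k14, the kinase NIK of the noncanonical pathway, at -1.05 (SE 0.87). The block moved Tab1 to -0.46 at day 10 and to 2.19 between the diet times, and this gene was detected on 2, 1 and 3 arrays of the groups in turn. The medians of the list with the block were 0.04, -0.28 and -0.12 in the 3 comparisons.

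Among the 4 other IkB proteins, 1 was higher and 3 lower at day 10, with a median of -0.63, and 2 were higher and 2 lower at day 30, with a median of -0.01. The smallest p at day 10 were those of Nfkbid, a nuclear IkB protein, at -1.24 (SE 1.03) and Nfkbil1 at -1.48 (SE 1.24). At day 30 they were those of Nfkbid at 0.31 and Nfkbib, the inhibitor IkB-beta, at -0.17, while other Nfkbib probes gave 0.54 and 1.23. Nfkbid and Nfkbil1 were 1.55 and 1.36 above day 10 at day 30, with SE of 1.03 and 1.24. With slide as a block Nfkbid was at -1.91 at day 10, -1.37 at day 30 and 0.54 between them, and Nfkbib at -1.16 at day 30. The block took the median of this list at day 30 to -0.64.

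Of 11 ubiquitin-linked regulators, 5 were higher and 6 lower at day 10 (median -0.26), and 7 higher and 4 lower at day 30 (median 0.40). The latter median was -0.32 with slide as a block and -0.05 in the authors' deposited value table. Rbck1, a subunit of the linear ubiquitin ligase, had a day 30 difference of 2.37 (SE 1.00; limma unadjusted p = 0.0301). Tnip2, a binding partner of A20, had one of -2.54 (SE 1.17; limma unadjusted p = 0.0459), which was 0.20 with slide as a block. Between the diet times Itch, a ubiquitin ligase that acts with A20, stood 2.81 higher at day 30 (SE 1.05; limma unadjusted p = 0.0165). Cyld, a deubiquitinase that restrains NF-kB, stood 2.64 higher (SE 1.19; limma unadjusted p = 0.0412), while its other probe gave -0.08. Itch and Cyld were at 4.16 and 4.13 with slide as a block.

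Of 24 NF-kB target genes 21 were tested, and Cd40, Ccl20 and Il6 were too dim. At day 10, 7 were higher and 14 lower (median -0.20), and at day 30, 10 were higher and 11 lower (median -0.02). These medians were -0.03 and -0.26 with slide as a block. Myc, a growth regulator, had a day 10 difference of -2.82 (SE 1.28; limma unadjusted p = 0.0429). Irf1, an interferon regulatory factor, was at 1.33 (SE 0.54; limma unadjusted p = 0.0246) for day 30 minus day 10, with 1.49 by its other probe. Il1b, an inflammatory cytokine made chiefly by myeloid cells, was at 1.87 (SE 0.79; limma unadjusted p = 0.0309) in that comparison. The slide block moved Irf1 to 0.72 and Il1b to 3.06. The summed macrophage and dendritic cell markers, whose range was higher at day 30 as given above, peaked on day 30 replicates 1 and 3 (46.3 and 60.0). The same arrays had the highest sums of the gut epithelium markers (398 and 552) and of the granulocyte and mast cell markers (337 and 393). However, 4 of 8 epithelium markers were detected on each, and 1 and 2 of 6 granulocyte and mast cell markers. Those sums rest largely on the bright probes of Pigr and Csf3r, with day 30 means of 8.32 and 8.07. Both arrays also had the lowest detection shares, 48.7 and 45.2%. The part of such cells, or of the detection share, in the differences above was not tested.

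Of 7 genes for Tnf processing and mRNA decay, 5 were tested, since Adam17, the sheddase that frees Tnf, and its cofactor Rhbdf2 were too dim. None had an unadjusted p under 0.05. Zfp36, which marks Tnf mRNA for decay, was at -2.21 (SE 1.23) and Tia1, which silences its translation, at 1.43 (SE 0.96) at day 10. At day 30 the smallest p were those of Zfp36l2 at 1.09 (SE 0.62) and Tia1 at 1.12 (SE 0.96), and between the diet times those of Elavl1 at 0.66 (SE 0.56) and Zfp36 at 0.85 (SE 1.23). The slide block put the last 2 at 0.21 and -0.14, and Zfp36l2 at day 30 was 0.60. Zfp36 was detected on 4 control, 1 day 10 and 1 day 30 arrays. The values for Tia1 are those of its brightest probe. Its other probes were below control at both times, so that the probes for Tia1 disagree in direction. Of 8 TNF-family costimulation genes, 3 were higher and 5 lower at both times (medians -0.23 and -0.13). Tnfsf14, the ligand LIGHT, had the widest swing, at -3.87 at day 10 (SE 1.52; limma unadjusted p = 0.0219) and 3.49 for day 30 minus day 10 (SE 1.52; limma unadjusted p = 0.036), and it was well above background on 5, 3 and 4 arrays of the groups in turn.

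**Figure D5:**
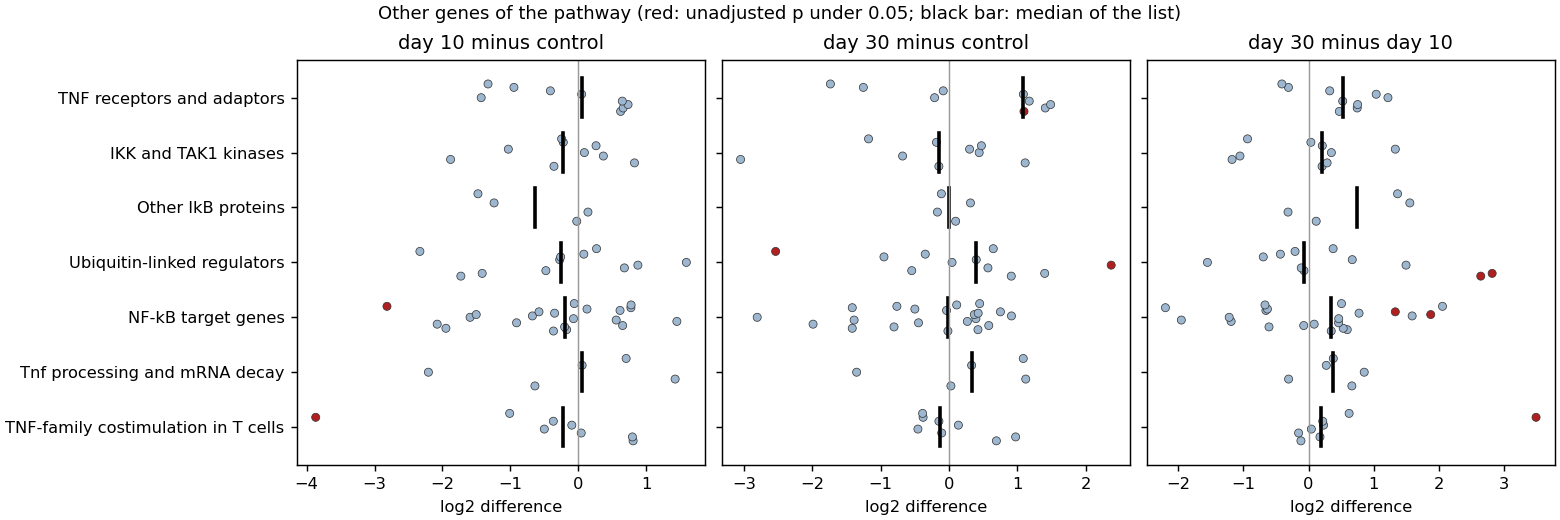
Differences of the 67 tested genes of the 7 pathway lists on the log2 scale in the 3 comparisons, one point per gene, with red points for an unadjusted p under 0.05 and black bars for the median of the list. The red points are few (Myc and Tnfsf14 at day 10, Birc2, Tnip2 and Rbck1 at day 30, and Itch, Cyld, Irf1, Il1b and Tnfsf14 for day 30 minus day 10), and no point passed the adjusted threshold. Of all genes tested, 2.61%, 5.21% and 4.12% had an unadjusted p under 0.05 in these comparisons.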

How the data were processed

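The members and gene lists were chosen with earlier results of these data known. Per the file headers, each spot intensity came from Feature Extraction 10.7.3.1 (protocol GE1_107_Sep09, mm9 grid), which subtracted background and detrended within an array without scaling across arrays. The authors deposited a second table of log2 values, and how they made it is not given in sources used here. From the intensities log2 values minus each array's 75th percentile over 55681 probes were computed. Outlier spots and 1 damaged spot line were left out (46 missing probe values), 0 spots were saturated, spots of a probe were averaged, and a gene took its probe of highest mean signal. Genes well above background on at least 5 of 15 arrays were tested, 25997 in all and 8819 too dim. One limma fit (version 3.58.1, R 4.3.3; lmFit, eBayes with trend, two-sided) took in all 15 arrays, and p-values were adjusted by Benjamini-Hochberg. The fit was tested on simulated data. Correlations used 100000 permutations. No pair of arrays was a repeat (smallest median absolute difference 0.804). Same-numbered arrays did not deviate together (correlations of -0.126 to 0.153 over 15 pairs), so replicate numbers do not pair samples. Named genes were the members, list genes at an unadjusted p under 0.05 (otherwise the 2 of smallest p in each comparison) and the 3 genes most like Nfkbia, Tnfaip3 and Tnf. Alternatives covered background, scaling, the deposited log2 table, filters, probes, slide, detection share, replicate block and leaving out each array. One further pathway list is not reported here. The number of arrays limits the precision.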

Additional observations from a re-analysis of the deposited data

Results flagged for a closer look

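In 39 groups of 5 arrays (13 probes in 3 groups), 5 arrays stood apart from the rest of their group by a gap large against the group's range (Dixon's 95% value). Chance gives about 1 in 20 groups if these are independent and normally spread. The probes share arrays, however, and Tnf was mostly not well above background. The share of all probes that meet the same rule was not computed, so no excess is claimed. Nfkb2 was at -2.04 on day 10 replicate 2, with the nearest array at 2.17. Rela was at 2.24 on day 10 replicate 4, with the nearest at 0.22. The third Relb probe was at 2.44 on day 30 replicate 1, with the nearest at 0.11. Nfkbie was at 0.45 on control replicate 1, with the nearest at 3.79. Tnf was at -2.67 on control replicate 4, the one control array where it was well above background, with the nearest at -5.59.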

How the results depend on the processing

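The count of 0 called members held under all 27 alternative settings in each comparison. Over all genes the count of 0 called rose to 1 for day 30 minus control with slide as a block, and leaving out one array gave 0 to 1 for day 10 minus control, 0 to 2 for day 30 minus control and 0 to 2 for day 30 minus day 10 (1 without day 30 replicate 4, 2 without day 10 replicate 4 in both of the others). The replicate numbers do not pair samples (3 of 15 arrays correlated best with their own number). Each number occurs once in each group, so the replicate block cannot change a member's difference (Nfkb2 at day 30 stayed at 1.80). The block bears only on the p-values of the members, and it left 0 genes called in each comparison. Of 729 member values 50 turned in sign. Part of the 729 could not turn, since the filters, the replicate block and arrays outside a comparison leave a member's difference unchanged. For day 10 minus control, quantile normalization gave -0.015 for Nfkb1, the deposited table -0.10 for Nfkb1 and -0.0052 for Nfkbia, slide as a block -0.17 for Nfkb2, and the detection covariate -0.13 for Tnfaip3. For day 30 minus control, Rela was -0.12 with the percentile over probes detected on all arrays. The deposited table gave -0.077 for Rela, -0.17 for Nfkb1, -0.20 for Relb and -0.12 for Nfkbia. Slide as a block gave -0.82 for Rela, -0.050 for Nfkb2 and -0.29 for Nfkbie, and the detection covariate -0.79 for Rela, -0.25 for Relb, -0.065 for Nfkbie and -0.38 for Tnfaip3. For day 30 minus day 10, Relb was -0.23 (quantile), -0.26 (percentile over detected probes), -0.33 (deposited) and -0.40 (detection covariate). The deposited table gave -0.073 for Nfkb1, -0.12 for Nfkbia, -0.14 for Nfkbie and -0.12 for Tnfaip3. Slide as a block gave -0.41 for Nfkbie and -0.036 for Tnfaip3, and the detection covariate -0.25 for Nfkbie, -0.25 for Tnfaip3 and -0.037 for Rel. The deposited table shifts the median of all genes by -0.10, -0.24 and -0.14. Leaving out each array in turn gave ranges across 0 for day 10 minus control of -0.18 to 0.66 for Nfkb1, -0.25 to 1.48 for Nfkb2, -0.045 to 0.57 for Nfkbia, -0.080 to 1.08 for Nfkbie and -0.085 to 0.65 for Tnfaip3. For day 30 minus control it was -0.38 to 1.06 for Rela. For day 30 minus day 10 they were -0.18 to 0.88 for Nfkb1, -0.12 to 0.88 for Rel, -0.88 to 0.56 for Rela, -0.15 to 0.34 for Relb, -0.15 to 0.80 for Nfkbie and -0.70 to 0.13 for Nfkbiz. The cause of these changes was not tested. An unadjusted p under 0.05 at day 30 against control was reached by Nfkb2 under 3 alternatives (at 1.80 to 2.22), by Nfkbiz under 3 (at -1.56 to -1.25) and by Tnfaip3 under 1 (at 1.02, without control replicate 3), and none held after adjustment.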
